A study of Mus musculus with 6 samples.

Results

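The 43 genes described here encode enzymes and binding proteins that write, erase, read or remodel the marks of chromatin. They are a list of symbols drawn up by function, with earlier results of these data known, and all 43 were found among the 24129 gene names of the table. They comprise the DNA methyltransferases and their cofactors, the TET dioxygenases, both Polycomb repressive complexes, histone demethylases, histone H3 lysine 9 methyltransferases, histone deacetylases, SWI/SNF remodelers and the HMGA proteins. Their RNA was compared between T1 cells (4T1A in the labels, described there as adherent, low in GFP, fast growing and aggressive in the animal) and T2 cells (4T1NA, described as round, loosely attached, high in GFP, slow growing and less aggressive). Both populations derive from 4T1GFP, a GFP-tagged line of the BALB/c mouse mammary carcinoma 4T1, and both came from a resected primary tumor that had formed from it in the mammary fat pad. They were separated by GFP level from a culture of sorted tumor fibroblasts that remaining GFP-positive tumor cells had overgrown. Each population had 3 replicates, and nothing in the sources ties a replicate to a separate tumor or sort, so p-values measure the spread between these samples alone. All samples were grown in DMEM/F-12 with 10% FBS, but T2 cells were passaged without trypsin, so the population and its handling cannot be told apart. Parental 4T1GFP cells were not analysed here.

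DNA methylation is set on unmethylated DNA by Dnmt3a and Dnmt3b, is copied to the new strand after replication by Dnmt1 with Uhrf1, and is oxidized by the TET enzymes as a first step of its removal. Polycomb complexes hold developmental genes silent through methylation of histone H3 lysine 27 (PRC2) and ubiquitination of histone H2A (PRC1). Histone deacetylases, lysine demethylases and the ATP-driven SWI/SNF complexes change how open nucleosomes are, and Hmga1 and Hmga2 are small proteins that bind AT-rich DNA and bend it. In mammary carcinoma cells several of these factors are known from work on cell identity and on the transition between epithelial and mesenchymal states.

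The libraries held 18133227 to 20839686 reads on genes. The deposited unit is a scaled read count, in which 1 read was worth 0.928 to 1.06 normalized counts. A change is given as a log2 fold change, T1 minus T2, of log2(normalized count + 1), with the standard error (SE) and the p-value adjusted over all 11514 genes compared (limma with Benjamini-Hochberg adjustment). Genes below an adjusted p-value of 0.01 are called different. Adding 1 before the log understates changes of genes with few reads. Exons of 18 members overlap a gene on the opposite strand, whose reads cannot be told apart where strand is not marked. In bulk RNA, fewer cells of a type and less RNA per cell cannot be told apart. Of 6 epithelial markers 4 were higher in T1 cells (Epcam, Cdh1, Krt14 and Krt19), while Krt8 and Krt18 differed by less than the test could call. The log2 fold changes of the 6 ran from 0.10 to 10.4 with a median of 5.72, and all 4 calls were above 2. In T2 libraries the 8 fibroblast markers summed to at most 1.86 normalized counts, the 9 leukocyte markers to 8.19 to 14.8 and the 6 endothelial markers to 0.979 to 18.4. In T1 libraries these sums were 21.2 to 40.0, 0 to 7.44 and 4.88 to 17.99. Col1a1, a collagen gene, was called higher in T1 cells, with 14, 30 and 25 reads against 1, 0 and 0, and Ptprc, which marks leukocytes, had 0 reads in each T1 library and 5, 6 and 3 in the T2 libraries. Of the fibroblast markers Col3a1, Lum, Pdgfrb and Thy1, of the leukocyte markers Tyrobp, Cd3e and Adgre1, and of the endothelial markers Kdr had 0 reads in every library. The part of such cells in the values given here was not tested.

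The module was lower in T1 cells more often than higher. Of the 43 members, 41 averaged 10 or more normalized counts and were compared, and 23 of the 41 (56.1%) differed, 4 higher and 19 lower in T1 cells. Over all genes compared 49.5% differed, 25.1% higher and 24.4% lower, so the members' share that differed lay near that of all genes, while the directions divided unevenly, with 9.76% higher and 46.3% lower. The median log2 fold change of the 41 members was -0.37, against -0.0055 over all genes. Under the study's stricter rule, which adds an absolute log2 fold change over 2, 8.37% of all genes and 0 members were called. With that limit set at 1, 6 members and 20.3% of all genes were called. The groups were apart in all 23 members that differed, and they did not overlap in 28 of the 41 (68.3%), against 68.1% of all genes. The median absolute change was 0.75 in the members that differed and 0.84 in all genes that differed, both on the log2 scale. Each of the 9 functional groups held at least 1 member that differed, where 49.5% of all genes did. Counts of groups and lists below stand beside 25.1% higher and 24.4% lower over all genes, and none was tested as a set. Of the 23 calls 17 were kept whichever library was left out. The other 18 members had log2 fold changes between -0.71 and 0.55, and 5 of them (Dnmt3a, Tet3, Ezh1, Cbx8 and Kdm2b) had adjusted p-values between 0.01 and 0.05.

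**Figure D1:**
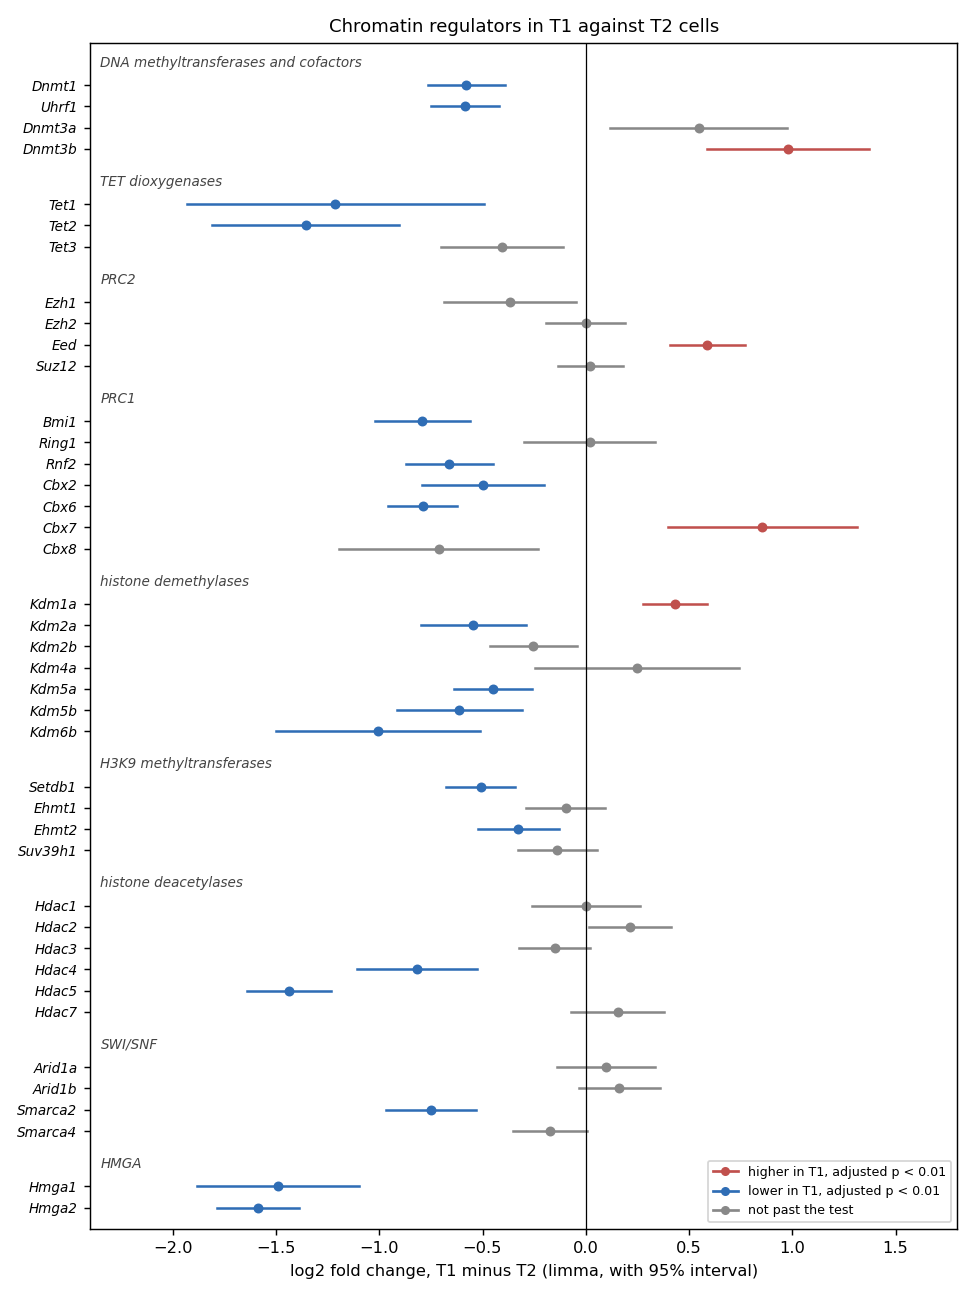
The log2 fold change of the 41 members compared is plotted (points, with 95% intervals from limma as lines) by functional group, with members higher in T1 cells in red, lower in blue and not past an adjusted p-value of 0.01 in grey. The 4 red points (Dnmt3b, Eed, Cbx7 and Kdm1a) lie right of 0, the 19 blue points lie left of it, and Hmga2, Hmga1, Hdac5, Tet2, Tet1 and Kdm6b lie beyond -1.

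Sequence upstream of the transcription start is shown for 4 members that stand for both directions of the module. Hmga2 and Hdac5 had the lowest adjusted p-values of the members lower in T1 cells, and among those higher Dnmt3b had the largest change and Eed the lowest adjusted p-value. Each is the 250 bases before a start site, 5′ to 3′ on the gene's strand, from RefSeq promoter windows of GRCm38.p6 (the mm10 build), and capitals mark the GC box letters GGGCGG or their reverse complement.
Hmga2 (chr10:120476470-120476719, minus strand): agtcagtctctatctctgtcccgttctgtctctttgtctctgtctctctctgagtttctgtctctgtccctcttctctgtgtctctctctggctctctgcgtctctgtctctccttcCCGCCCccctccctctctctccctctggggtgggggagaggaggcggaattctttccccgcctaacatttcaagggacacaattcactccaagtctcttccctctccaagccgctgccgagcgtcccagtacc
Hdac5 (chr11:102230173-102230422, minus strand): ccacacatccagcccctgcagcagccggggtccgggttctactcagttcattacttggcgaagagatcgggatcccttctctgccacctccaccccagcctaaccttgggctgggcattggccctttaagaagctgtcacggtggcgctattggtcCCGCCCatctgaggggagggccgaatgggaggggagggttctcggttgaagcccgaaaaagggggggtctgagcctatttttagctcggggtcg
Eed (chr7:89980977-89981226, minus strand): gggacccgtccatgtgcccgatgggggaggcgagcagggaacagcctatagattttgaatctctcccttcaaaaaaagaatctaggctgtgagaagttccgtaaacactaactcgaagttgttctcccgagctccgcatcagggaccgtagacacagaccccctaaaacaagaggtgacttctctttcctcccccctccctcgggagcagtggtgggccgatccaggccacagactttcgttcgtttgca
Dnmt3b (chr2:153649199-153649448, plus strand): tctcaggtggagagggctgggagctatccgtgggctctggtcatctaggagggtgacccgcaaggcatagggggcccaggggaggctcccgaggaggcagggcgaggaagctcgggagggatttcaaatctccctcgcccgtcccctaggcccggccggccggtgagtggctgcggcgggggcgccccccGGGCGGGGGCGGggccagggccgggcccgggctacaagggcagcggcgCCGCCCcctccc

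Promoter windows of 300 bases (250 before and 50 after the start) were found for 37 of the 43 members, taking the window nearest the annotated gene start. The windows held 12 CpG dinucleotides in Hmga2, 18 in Hdac5, 17 in Eed and 30 in Dnmt3b. The ratio of observed to expected CpG had a median of 0.787 over the 37 members and of 0.786 over 8840 genes compared that have a window. A GC box on either strand was present in 29 of the 37 windows (78.4%), in 14 of the 15 windows of members lower in T1 cells and in 2 of the 4 of members higher there. It was present in 67.2% of the windows of the 8840 genes and in 35.7% of all 32851 windows. The letters TTTCCCGC, TTTGGCGC, TTTCGCGC and TTTGCCGC, letters bound by E2F factors, on either strand, were found in 2 of the 37 (5.41%), Ezh2 and Suz12, and in 4.36% of the 8840. For the 8840 genes the window listed first was taken, a choice that also gives 2 of 37 and 29 of 37 in the members. Some genes have several windows, and over all of them an E2F match was found in 6 members (16.2%), Arid1a, Dnmt1, Suv39h1 and Uhrf1 besides, and in 4.97% of the 8840, with 55 windows for the 37 members and 11310 for the 8840 genes. Dnmt1 has 3 windows, with 2, 12 and 33 CpG dinucleotides in order from the farthest upstream start, and the last of them holds both a GC box and an E2F match. These matches describe letters only.

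The enzymes that copy DNA methylation were lower in T1 cells, while a de novo methyltransferase was higher. Dnmt1, the maintenance methyltransferase (chromosome 9, 20907209 to 20959888), had 8107, 7677 and 8976 normalized counts in T1 replicates 1, 2 and 3 and 13299, 11926 and 11725 in the T2 replicates. The groups did not overlap, and the highest T1 library was below the lowest T2 library by more than the spread within either group (log2 fold change -0.58, SE 0.08, adjusted p = 0.000165). Uhrf1, which recognizes hemimethylated DNA and brings Dnmt1 to it, had 5204, 5041 and 4589 in T1 and 7655, 7178 and 7404 in T2 replicates. Its change was nearly the same size (log2 fold change -0.59, adjusted p = 6.44e-05), although 18.9% of the 50-base stretches of its transcript also occur in other annotated genes. Dnmt3b, a de novo methyltransferase (chromosome 2, 153649450 to 153687730), had 369, 338 and 245 in T1 and 168, 168 and 139 in T2 replicates. No T1 library was as low as a T2 library (log2 fold change 0.98, SE 0.18, adjusted p = 0.000717), with T1 replicate 3 the lowest of the T1 libraries, and 11.5% of its 50-base stretches are shared with Dnmt3c.

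Dnmt3a, the other de novo enzyme, had 440.2, 515 and 669 in T1 and 303, 475 and 337 in T2 replicates, and the groups overlapped because T2 replicate 2 lay above T1 replicate 1. Its log2 fold change of 0.55 did not pass the test (adjusted p = 0.03), but did without T2 replicate 2 (0.74, adjusted p = 0.00665) and with DESeq2 (0.55, adjusted p = 0.00821). The log2 ratio of Dnmt3b to Dnmt3a within a sample was -0.77 ± 0.61 in T1 samples and -1.20 ± 0.33 in T2 samples (SD over 3 samples a group), a difference of 0.43 (95% interval -0.68 to 1.55), so a shift between these enzymes was not resolved. Dnmt3l, a cofactor of the de novo enzymes in germ cells, had 1 read in T1 replicate 2 and none in the other libraries. Per kilobase of exon, the maintenance genes were the far more abundant ones. In T1 cells Uhrf1 had 1161 ± 74.7 and Dnmt1 1119 ± 89.7 normalized counts per kilobase (SD, n = 3), levels within their spread of each other. Dnmt3b had 62.1 ± 12.6 and Dnmt3a 32.5 on the same scale. The length used, here and for other genes, is that of all annotated exons merged, which can exceed that of any transcript. It was 16642 bases for Dnmt3a and 5106 for Dnmt3b. By mean normalized count Dnmt3a was the higher in T1 cells (541 against 317), so their order depends on this length.

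All TET genes had lower values in T1 cells, and Tet2 and Tet1 passed the test. Tet2 (chromosome 3, 133463679 to 133545139) had 133, 123 and 200.1 in T1 and 339, 469 and 351 in T2 replicates. Every T2 library was above every T1 library, and the mean was 2.54 times as high in T2 cells (log2 fold change -1.36, SE 0.20, adjusted p = 0.000218). Tet1 was near the lower end of what could be compared, with 15, 9 and 15 reads in the T1 and 29, 28 and 37 in the T2 libraries. Its log2 fold change was -1.21 (adjusted p = 0.0078), a call that 4 of the 6 omissions of a library ended. The adjusted p-value was 0.0264 without T1 replicate 2, 0.0248 without T2 replicate 1, 0.0189 without T2 replicate 2 and 0.0338 without T2 replicate 3, and DESeq2 gave 0.0226. Tet3, the most abundant of the family, had 1381, 1178 and 1173 in T1 and 1454, 2043 and 1490.2 in T2 replicates. The T1 libraries lay below the T2 libraries, with T2 replicate 2 apart from the other T2 libraries, and its log2 fold change of -0.40 did not pass in limma (adjusted p = 0.0219), whereas DESeq2 gave an adjusted p of 0.00517. The ratio of Tet3 to Tet2 was 10.4, 9.60 and 5.86 in the T1 and 4.29, 4.36 and 4.25 in the T2 replicates. The log2 ratio differed by 0.95 (95% interval 0.24 to 1.66), without overlap of the groups. For Tet1 to Tet2 the difference of the log2 ratio was 0.14 (95% interval -0.71 to 1.001), with overlap. Exact permutation tests of such ratios cannot give a p-value under 0.1 with 3 samples against 3. That value was reached by 9 of the 16 ratios computed, which gave each of the 9 an adjusted p of 0.178. Ratios of other gene pairs were not computed, and among single genes 68.1% of all compared did not overlap between the groups.

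**Figure D2:**
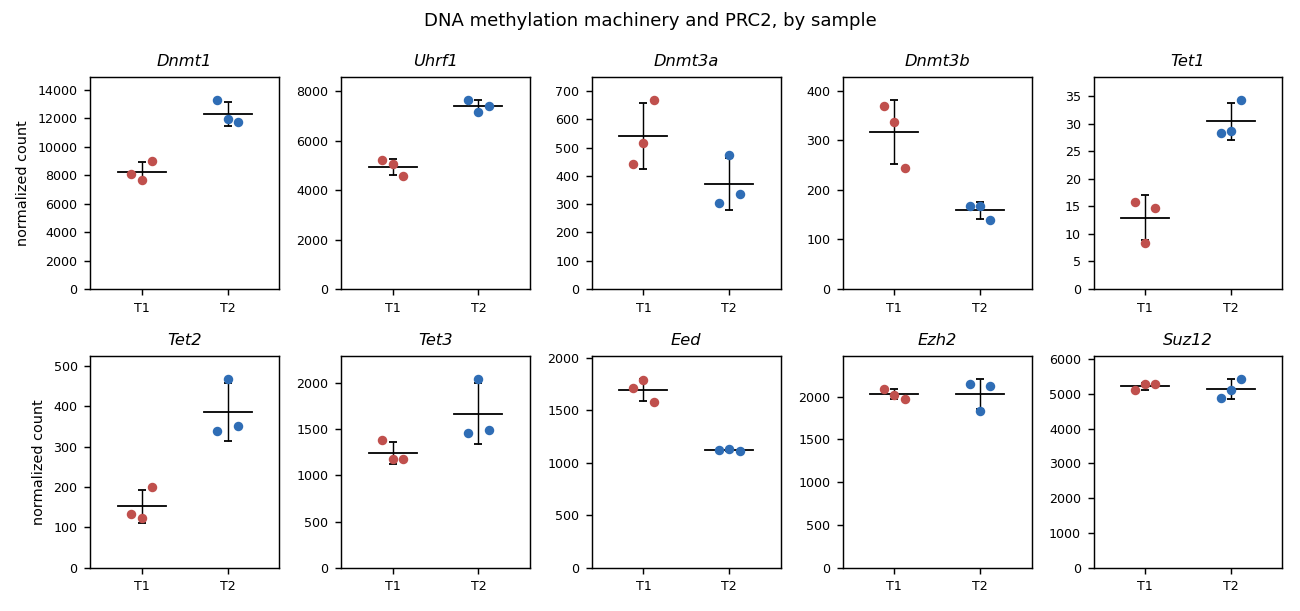
Normalized counts (vertical axes, from 0) are shown for each of the 3 T1 replicates (red) and 3 T2 replicates (blue), with the mean as a line and the SD as a bar, for genes of DNA methylation and PRC2. Dnmt1, Uhrf1, Tet1, Tet2 and Tet3 are lower in every T1 library than in any T2 library, Dnmt3b and Eed are higher, and Dnmt3a, Ezh2 and Suz12 overlap.

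Other genes of DNA methylation, from lists of related chromatin genes, changed in both directions. Of 9 methyl-CpG readers 2 were higher and 4 lower in T1 cells, and the median was -0.57 on the log2 scale. Zbtb4, a zinc finger reader, had 144, 183 and 203 in T1 and 606, 549 and 645 in T2 replicates (log2 fold change -1.77, adjusted p = 3.74e-06). Of 9 genes compared of methylation turnover and cofactors, 3 had higher and 1 had lower levels in T1 cells. Tdg, the glycosylase that removes oxidized methylcytosine, had 195, 201 and 234 in T1 and 113, 113 and 71.4 in T2 replicates (log2 fold change 1.10, adjusted p = 0.000836). Gadd45b, a stress-induced gene, had 1789, 1149 and 1663 in T1 and 118, 127 and 59.4 in T2 replicates. The Gadd45 genes divided, with log2 fold changes of 3.96 for Gadd45b, 2.67 for Gadd45a and -1.31 for Gadd45g (adjusted p = 8.47e-07, 0.000157 and 0.000863). Gadd45a had 208, 179 and 561 in the T1 replicates, with replicate 3 far above the others. Of all 24129 gene names, 15710 had a read in some library. Of 18 germline genes known for silencing by DNA methylation, which was not measured here, 14 had no read in any library, Dazl and Ddx4 among them. Only Sycp1 had enough reads to be compared, a gene named after its values were seen, with 76.2, 77.2 and 69.3 in T1 and 78.3, 88.1 and 65.9 in T2 replicates (log2 fold change -0.05, 95% interval -0.48 to 0.38).

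In PRC2 1 of 4 subunits (25%) passed the test, where 49.5% of all genes did. Eed, which binds trimethylated lysine 27 and stimulates the enzyme (chromosome 7, 89954654 to 89980983), had 1711, 1791 and 1576 normalized counts in T1 and 1124, 1131 and 1117 in T2 replicates. The T2 libraries were nearly identical and every T1 library was above them (log2 fold change 0.59, SE 0.08, adjusted p = 0.000127). Ezh2, the catalytic subunit of cycling cells, had 2089, 2019 and 1972 in T1 and 2142, 1829 and 2127 in T2 replicates. The interval of its log2 fold change ran from -0.19 to 0.19. Suz12, the scaffold of the complex, had 5093, 5274 and 5266 in T1 and 4866, 5103 and 5432 in T2 replicates, with an interval of -0.13 to 0.18. Ezh1, the catalytic paralog associated with resting cells, had 318, 285 and 357 in T1 and 384, 373 and 487 in T2 replicates. Its groups did not overlap, but the log2 fold change of -0.37 did not pass (adjusted p = 0.0456). The log2 ratio of Ezh2 to Ezh1 was 2.66 ± 0.18 in T1 samples and 2.30 ± 0.18 in T2 samples (SD over 3 samples a group), a difference of 0.37 (95% interval -0.04 to 0.78), and the groups overlapped. Per kilobase, Suz12 had 1054 ± 20.7 in T1 cells, Eed 442 ± 28.4, Ezh2 303 ± 8.76 and Ezh1 43.0 ± 4.89 normalized counts (SD, n = 3), an order in which each neighbour differed by more than the spread. In T2 cells Ezh2 had 304 ± 26.5 and Eed 294 ± 1.85, which lay within their spread.

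Of 8 accessory PRC2 genes compared, 5 were lower in T1 cells and none higher, with a median of -0.36 on the log2 scale. Phf1 and Phf19 kept their call in all 6 omissions of a library, Aebp2 in 3 of 6, and Mtf2 and Rbbp7 in 1 of 6. All but Phf1 were named after their values were seen. Phf1, a Polycomb-like protein that helps recruit PRC2, had 265, 217 and 251 in T1 and 764, 831 and 705 in T2 replicates (log2 fold change -1.65, SE 0.12, adjusted p = 1.48e-06). It was the gene of that list past a log2 fold change of 1, and its groups were far apart relative to their spread.

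Of the 7 PRC1 members 4 (57.1%) were lower in T1 cells and 1 (14.3%) was higher, against 24.4% and 25.1% of all genes. The chromobox genes were divided. Bmi1, a ring finger subunit known for self-renewal of stem cells (chromosome 2, 18677018 to 18686629), had 2317, 2388 and 1856 normalized counts in T1 and 3542, 3759 and 3997 in T2 replicates. The T2 mean was 1.72 times the T1 mean (log2 fold change -0.79, SE 0.10, adjusted p = 8.01e-05), and 18.5% of its 50-base stretches also occur in other annotated genes. Rnf2, the main ubiquitin ligase of the complex, had 1173, 1227 and 1072 in T1 and 1716, 1745 and 2036 in T2 replicates (log2 fold change -0.66, adjusted p = 0.000168). Ring1, its paralog, had 335, 328 and 456 in T1 and 368, 371 and 354 in T2 replicates, with T1 replicate 3 above the other T1 libraries and the groups overlapping. Its log2 fold change had an interval of -0.30 to 0.34, and without T1 replicate 3 the change was -0.13, in the other direction but again not past the test. Relative to Rnf2 in the same sample, Ring1 differed on the log2 scale by 0.68 (95% interval 0.04 to 1.32), without overlap. The exact permutation test gave an adjusted p of 0.178, and leaving out 1 replicate gave differences from 0.47 to 0.81.

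The chromobox proteins give binding to methylated lysine 27 to those PRC1 complexes that hold 1 of them. Cbx6 had 2382, 2234 and 2387 in T1 and 4158, 3788 and 4166 in T2 replicates, a 1.73-fold higher mean in T2 cells with tight replicates in both (log2 fold change -0.79, SE 0.07, adjusted p = 8.35e-06). Cbx2 had 582, 506 and 449 in T1 and 711, 824 and 637 in T2 replicates, a smaller gap in which T1 replicate 1 came close to T2 replicate 3. Its change of -0.50 (adjusted p = 0.00755) was not past the test without T1 replicate 2 (adjusted p = 0.0233), T1 replicate 3 (0.0202), T2 replicate 1 (0.0252) or T2 replicate 2 (0.0329). Cbx8 had 114, 124 and 169.8 in T1 and 243, 265 and 165 in T2 replicates, and the groups overlapped at T1 replicate 3 and T2 replicate 3. Its change of -0.71 did not pass in limma (adjusted p = 0.0154), but did without T1 replicate 3 (-0.88, adjusted p = 0.00504), without T2 replicate 3 (-0.92, adjusted p = 0.00525) and with DESeq2 (adjusted p = 0.00350). Cbx7 alone among the 4 chromobox members was higher in T1 cells, with 222, 210.2 and 333 in T1 and 141, 162 and 114 in T2 replicates. T1 replicate 3 stood above the others, and the change of 0.85 (SE 0.21, adjusted p = 0.00445) lost its call without T1 replicate 3 (0.65, adjusted p = 0.0114), without T2 replicate 1 (adjusted p = 0.0157) and without T2 replicate 3 (adjusted p = 0.0226).

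Ratios within a sample, which do not depend on how samples are scaled, are given for the chromobox genes. Cbx8 to Cbx7 was 0.514, 0.588 and 0.510 in the T1 and 1.72, 1.64 and 1.45 in the T2 replicates. Per kilobase, Cbx7 had 39.3 ± 10.4 and Cbx8 37.0 ± 8.09 in T1 cells, within their spread, against 21.4 ± 3.68 and 61.1 ± 14.3 in T2 cells (SD, n = 3), where Cbx8 was above Cbx7. The log2 ratio differed by -1.57 (95% interval -1.84 to -1.29). Cbx6 to Cbx7 was 10.7, 10.6 and 7.17 in the T1 and 29.5, 23.4 and 36.5 in the T2 replicates, a log2 difference of -1.64 (95% interval -2.38 to -0.91), and for Cbx2 to Cbx7 the log2 difference was -1.35 (95% interval -2.19 to -0.51). None of these groups overlapped, and the adjusted p-value was 0.178 for each (exact permutation test). Of 16 other PRC1 subunits 4 were higher and 3 lower in T1 cells, all by less than 1 on the log2 scale.

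**Figure D3:**
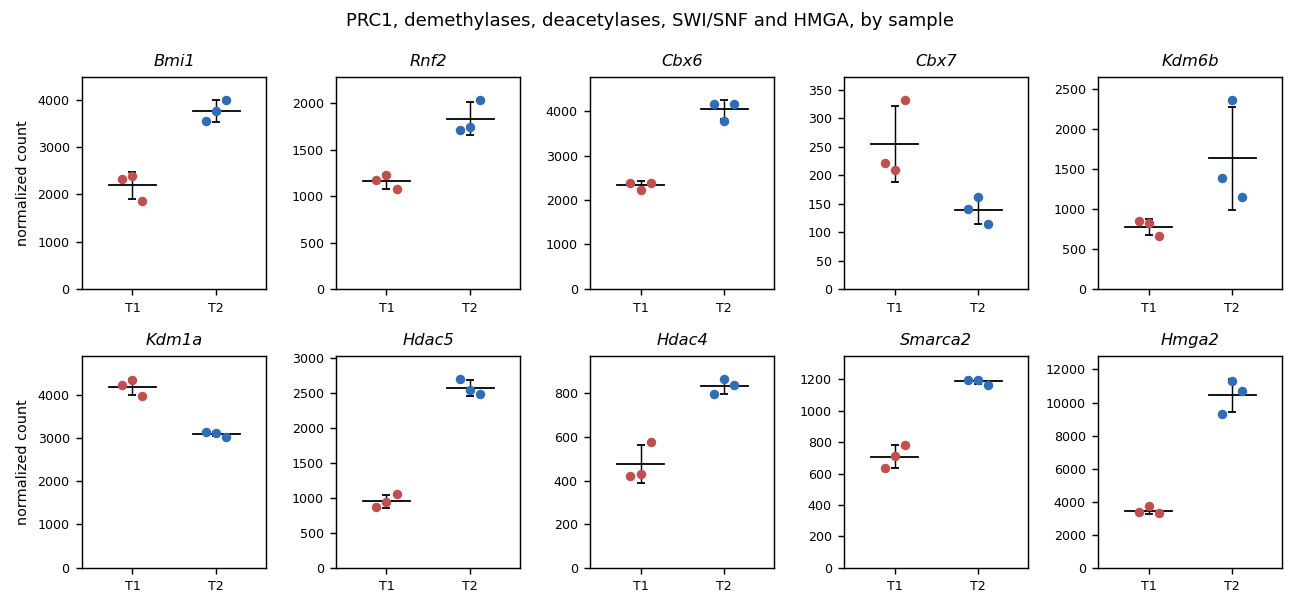
Normalized counts (vertical axes, from 0) are shown for each T1 replicate (red) and T2 replicate (blue), with the mean as a line and the SD as a bar, for 10 members of PRC1, the demethylases, the deacetylases, SWI/SNF and HMGA. Cbx7 and Kdm1a are higher in every T1 library than in any T2 library, and the other 8 genes are lower.

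Of the 7 lysine demethylases 1 (14.3%) was higher and 4 (57.1%) were lower in T1 cells, against 25.1% and 24.4% of all genes. Kdm1a (also known as Lsd1), which removes methyl groups from histone H3 lysine 4 in the CoREST complex, had 4227, 4333 and 3957 normalized counts in T1 and 3130.4, 3106 and 3031 in T2 replicates. The change was modest, but the T2 libraries differed little among themselves (log2 fold change 0.43, SE 0.07, adjusted p = 0.000364). Kdm6b (Jmjd3), the inducible demethylase of lysine 27, had 849, 826 and 663 in T1 and 1391, 2366 and 1145 in T2 replicates. T2 replicate 2 was well above the other T2 libraries, and the change of -1.01 (SE 0.22, adjusted p = 0.00268) was -0.70 without that library and still past the test, while without the variance trend of limma its adjusted p was 0.0181.

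Kdm5a and Kdm5b, which remove trimethylation of lysine 4, were both lower in T1 cells. Kdm5a had 1344, 1432 and 1458 in T1 and 1774, 2044 and 1967 in T2 replicates (log2 fold change -0.45, adjusted p = 0.000966). Kdm5b had 472, 476 and 484 in T1 and 598, 873 and 744 in T2 replicates, with T1 replicates almost equal (log2 fold change -0.61, adjusted p = 0.00264), and the log2 ratio of Kdm5b to Kdm5a differed by -0.16 (95% interval -0.45 to 0.12), with overlap. Leaving out T1 replicate 1, T2 replicate 2 or T2 replicate 3 raised the adjusted p of Kdm5b to 0.01004, 0.0102 and 0.0131, just over the threshold. Kdm2a, a CpG-binding demethylase of lysine 36, had 2293, 2138 and 1706 in T1 and 2831, 3260.0 and 2809 in T2 replicates (log2 fold change -0.54, adjusted p = 0.00193, and 0.0102 without T2 replicate 2). Its paralog Kdm2b had a log2 fold change of -0.25 that did not pass (adjusted p = 0.0371).

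Kdm4a, a demethylase of lysine 9 and lysine 36, had 1356, 1204 and 2545 in T1 and 1358, 1363 and 1339 in T2 replicates. T1 replicate 3 held far more than any other library, and the log2 fold change of 0.25 (interval -0.25 to 0.74) became -0.08 without it. Of 12 demethylases outside the module that could be compared, 5 were lower in T1 cells and 2 higher. Kdm3a, which demethylates lysine 9, had 815, 825 and 786 in T1 and 2259, 2088 and 2113 in T2 replicates (log2 fold change -1.41, adjusted p = 2.17e-07). Kdm7a and Kdm4b were also lower, by log2 fold changes of -1.37 and -1.002 (adjusted p = 0.000229 and 0.000135).

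Among the writers of histone H3 lysine 9 methylation, Setdb1 and Ehmt2 were lower in T1 cells. Setdb1, which silences retroelements together with Trim28, had 1619.9, 1628 and 1534 normalized counts in T1 and 2337, 2192 and 2279 in T2 replicates. The groups were far apart relative to their spread (log2 fold change -0.51, SE 0.07, adjusted p = 0.000177). Ehmt2 (G9a) had 4294, 4290.1 and 5061 in T1 and 5976, 5850.4 and 5263 in T2 replicates, with T1 replicate 3 near the lowest T2 library. Its change of -0.33 was close to the threshold (adjusted p = 0.00835). It was not past it without T1 replicate 1 (adjusted p = 0.0372), T1 replicate 2 (0.0383), T2 replicate 1 (0.0393) or T2 replicate 2 (0.0299), with the replicate number as a block (0.0141), or without the filter on low counts (0.0104). Ehmt1, its partner in a heterodimer, had 1998, 1905 and 2278 in T1 and 2257, 2215 and 2122 in T2 replicates, with an interval of -0.29 to 0.09 for its log2 fold change. Relative to Ehmt2, Ehmt1 differed on the log2 scale by 0.23 (95% interval 0.13 to 0.33), the narrowest interval among the ratios, without overlap of the groups. Suv39h1, the enzyme of pericentromeric heterochromatin, overlapped between the groups (interval -0.33 to 0.05).

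Other histone methyltransferases changed in both directions, 3 of 20 compared being higher and 5 lower in T1 cells. Suv420h1, a methyltransferase of histone H4 lysine 20, had 826, 795 and 864 in T1 and 2179.7, 2137 and 2182 in T2 replicates (log2 fold change -1.39, adjusted p = 2.20e-07). Nsd1, which methylates lysine 36, went the other way, with 329, 342 and 354 in T1 and 133, 124 and 134 in T2 replicates (log2 fold change 1.39, adjusted p = 7.45e-06). Dot1l, the methyltransferase of lysine 79, was also higher in T1 cells, with 3023, 2944 and 2908 in T1 and 1232, 1584 and 1186 in T2 replicates (log2 fold change 1.16, adjusted p = 7.63e-06).

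Of the 6 histone deacetylases compared, Hdac4 and Hdac5 were lower in T1 cells. Both are class IIa genes, whose proteins shuttle between nucleus and cytoplasm, while Hdac7 of the same class and the class I genes did not pass the test. Hdac5 (chromosome 11, 102194432 to 102230166) had 867, 944 and 1051 normalized counts in T1 and 2710.4, 2541 and 2488 in T2 replicates. The groups were far apart, and the means differed 2.70-fold (log2 fold change -1.44, SE 0.09, adjusted p = 5.17e-07). Hdac4 had 421, 432 and 577 in T1 and 796, 865 and 838 in T2 replicates (log2 fold change -0.82, adjusted p = 0.000314), and 3536 of its 15813 exonic bases overlap an antisense gene, whose reads cannot be told apart without strand. Hdac7, another class IIa gene, had 2375, 2199 and 2715 in T1 and 2179.7, 2384 and 1975 in T2 replicates, with overlapping groups and an interval of -0.07 to 0.38. Hdac9, the other member of the class here, had 0 reads in every library.

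The ratio of Hdac7 to Hdac5 was 2.74, 2.33 and 2.58 in the T1 and 0.804, 0.938 and 0.794 in the T2 replicates. By reads Hdac7 exceeded Hdac5 in every T1 library and Hdac5 exceeded Hdac7 in every T2 library, a log2 difference of 1.59 (95% interval 1.31 to 1.88). Per kilobase, Hdac7 had 359.7 ± 38.9 and Hdac5 109 ± 10.6 in T1 cells, against 323 ± 30.3 and 294 ± 13.2 in T2 cells (SD, n = 3). On that scale Hdac7 was above Hdac5 in T1 cells beyond the spread, and they lay close together in T2 cells. Hdac4 to Hdac5 differed by 0.62 (95% interval 0.33 to 0.91) on the log2 scale, since Hdac5 changed more.

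Among the class I deacetylases, Hdac2 had 4007, 4005 and 3599 in T1 and 3378, 2992 and 3659 in T2 replicates, overlapping at T1 replicate 3 (log2 fold change 0.21, adjusted p = 0.0598). Hdac3 had a log2 fold change of -0.15 (interval -0.32 to 0.02). Hdac1 had 335, 307 and 347 in T1 and 323, 316 and 349.8 in T2 replicates, with an interval of -0.26 to 0.26. Its level is uncertain, since 58.7% of the 50-base stretches of its transcript also occur in other annotated genes. Relative to Hdac2, Hdac1 differed on the log2 scale by -0.21 (95% interval -0.51 to 0.09). Of 9 other deacetylases and sirtuins 1 was higher and 1 lower, and of 10 acetyltransferases, the opposing enzymes, 1 was lower in T1 cells. Of 15 subunits of the NuRD, CoREST and Sin3 corepressors, in which deacetylases act, 2 had higher and 3 had lower levels in T1 cells, and of 8 heterochromatin proteins 1 was called in each direction.

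**Figure D4:**
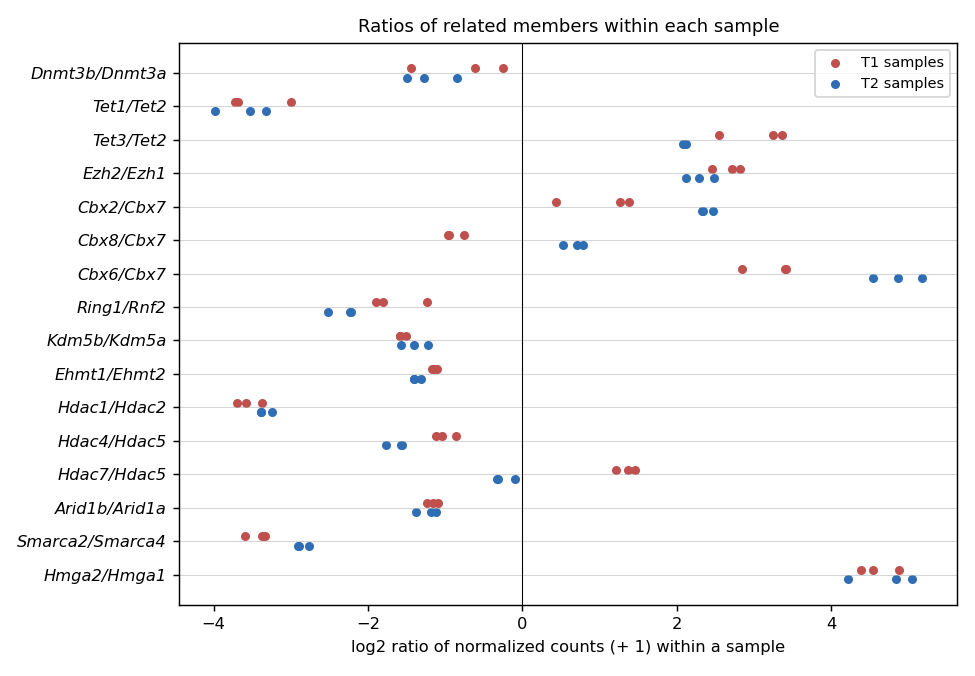
The log2 ratio of normalized counts (+ 1) of 16 pairs of related members is shown for each T1 sample (red) and T2 sample (blue). The groups are apart in 9 pairs, among them Cbx8/Cbx7 and Hdac7/Hdac5, where the T1 and T2 samples lie on opposite sides of 0, and they overlap in pairs such as Dnmt3b/Dnmt3a, Ezh2/Ezh1 and Hmga2/Hmga1.

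In SWI/SNF, the alternative ATPase Smarca2 differed and Smarca4 was not shown to. Smarca2 (Brm) had 634, 709.6 and 781 normalized counts in T1 and 1194, 1198 and 1165 in T2 replicates (log2 fold change -0.75, SE 0.10, adjusted p = 8.49e-05). Its T2 libraries lay within a narrow range, all above T1 replicate 3, the highest T1 library. Smarca4 (Brg1), the main ATPase, had 7674, 7135 and 8112 in T1 and 8968, 8939 and 7952 in T2 replicates in overlapping groups (log2 fold change -0.17, adjusted p = 0.0815). Within a sample, the log2 ratio of Smarca2 to Smarca4 was -3.43 ± 0.14 in T1 samples and -2.86 ± 0.08 in T2 samples (SD over 3 samples a group), a difference of -0.57 (95% interval -0.83 to -0.31). Smarca4 was nonetheless the more abundant in both populations, with 1180.0 ± 75.5 normalized counts per kilobase against 49.6 ± 5.15 for Smarca2 in T1 cells, and 1331 ± 89.3 against 83.1 ± 1.24 in T2 cells (SD, n = 3).

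The DNA-binding subunits Arid1a and Arid1b did not pass the test. Arid1a had 4023, 3693 and 3839.6 in T1 and 3487, 4266 and 3139 in T2 replicates, with T2 replicates spread more widely (interval -0.14 to 0.33). Arid1b had 1706, 1727 and 1726 in T1 and 1598, 1645 and 1377 in T2 replicates, without overlap but with an interval of -0.03 to 0.36, and the log2 ratio of Arid1b to Arid1a differed by 0.07 (95% interval -0.17 to 0.30). Of 19 further subunits compared 5 were higher and 3 lower in T1 cells. Brd7, a subunit of the PBAF form, had 2901, 3159 and 3436 in T1 and 1522, 1245 and 1566 in T2 replicates (log2 fold change 1.14, adjusted p = 7.11e-06). Phf10, another PBAF subunit, had 1546, 1596 and 2856 in T1 and 819, 882 and 838 in T2 replicates (log2 fold change 1.18, adjusted p = 0.000435), with T1 replicate 3 above the other T1 libraries.

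The HMGA genes had the largest changes of the module. Hmga2, an architectural factor of embryonic tissue that tumors can re-express (chromosome 10, 120361275 to 120476469), had 3348, 3733 and 3314 normalized counts in T1 and 9307, 11291 and 10684 in T2 replicates. No T2 library came near a T1 library, and the means differed 3.01-fold (log2 fold change -1.59, SE 0.09, adjusted p = 2.14e-07). Per kilobase Hmga2 ranked number 9 of the 43 members in T1 cells, with 512 ± 34.4 normalized counts, and number 3 in T2 cells, with 1539.8 ± 150.1 (SD, n = 3). In T2 cells Uhrf1 (1740.4 ± 56.0) and Dnmt1 (1669.6 ± 116) ranked above it, and Dnmt1 and Hmga2 lay within their spread. Hmga1 had 159, 126 and 142 in T1 and 500.4, 392 and 323 in T2 replicates, without overlap (log2 fold change -1.49, SE 0.18, adjusted p = 4.26e-05). Its level is uncertain, since 69.1% of its 50-base stretches also occur in Hmga1b, a near-identical copy. Without Hmga1, 22 members differed. The log2 ratio of Hmga2 to Hmga1 differed by -0.10 (95% interval -0.90 to 0.71). Both were lower in T1 cells, and this wide interval does not resolve whether by the same amount.

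Of 7 genes that act on Hmga2 RNA or on let-7, the microRNA known to repress it, 5 could be compared. Igf2bp1, an RNA-binding protein known to protect transcripts from let-7, was higher in T1 cells, with 1015, 1035 and 842 in T1 and 66.6, 92.1 and 35.3 in T2 replicates (log2 fold change 3.97, SE 0.28, adjusted p = 1.20e-06). Igf2bp2 was lower in T1 cells (-0.74, adjusted p = 1.32e-05), Dicer1 was higher (0.59, adjusted p = 6.78e-05), and Lin28a and Lin28b had 0 reads in every library. These 4 genes were named after their values were seen. Of 6 histone variant and linker histone genes compared, 4 were lower in T1 cells and none higher. H2afv, a variant of the H2A.Z type, had 641, 613 and 911 in T1 and 2913, 2262 and 2554 in T2 replicates (log2 fold change -1.85, adjusted p = 2.94e-06).

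Among 141 genes compared in the 12 lists of related chromatin genes, 36 (25.5%) were lower in T1 cells and 23 (16.3%) higher, and the median was -0.07 on the log2 scale. The lower share was near the 24.4% of all genes and below the 46.3% of the members. The higher share was below the 25.1% of all genes and above the 9.76% of the members. The difference between the module and these lists was not tested. Several members, Dnmt1, Uhrf1 and Ezh2 among them, are known to be transcribed mainly in cycling cells. Of these, Ezh2 was not called different (interval -0.19 to 0.19 for its log2 fold change). Of 22 proliferation genes 3 were higher and 9 lower, the median being -0.19 and the range -1.13 to 0.58. Mcm5, named after its values were seen, was higher in every T1 library. It had 12163, 12224 and 11385 in T1 and 9050, 9049 and 8215 in T2 replicates (log2 fold change 0.44). E2f1 had 1143, 1249.9 and 1197 in T1 and 2739, 2659 and 2451 in T2 replicates (log2 fold change -1.13, adjusted p = 1.19e-06), and Pcna had 4782, 4804 and 4415 in T1 and 6161, 6076 and 6151 in T2 replicates (log2 fold change -0.39, adjusted p = 0.000566). Mki67 had 18671, 13951 and 15139 in T1 and 18081, 15622 and 16838 in T2 replicates in overlapping groups (log2 fold change -0.09, interval -0.33 to 0.15). The part of these genes in the lower values of Dnmt1 and Uhrf1 was not tested.

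**Figure D5:**
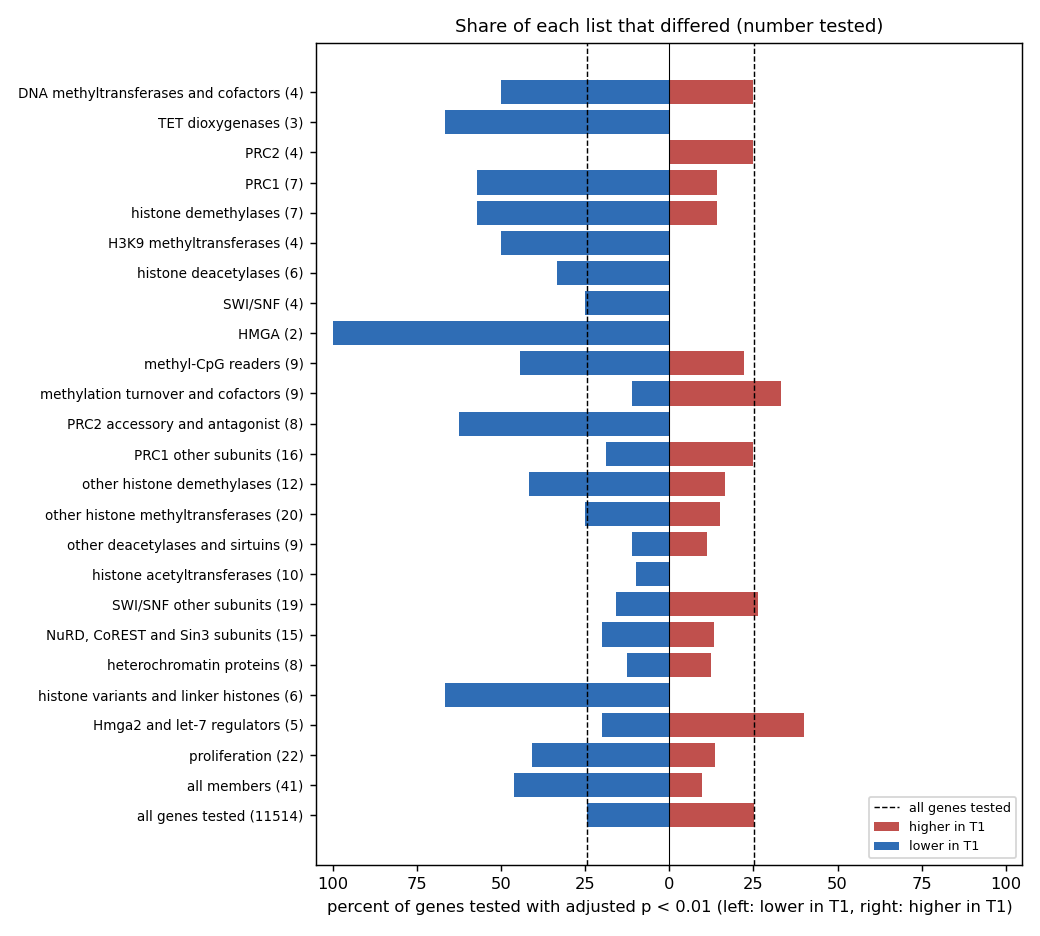
The percent of genes compared with an adjusted p-value under 0.01 is drawn for each list, lower in T1 cells to the left (blue) and higher to the right (red), with the number compared in brackets and dashed lines at the values of all genes (24.4% and 25.1%). For all 41 members the blue bar reaches 46.3% and the red bar 9.76%, while the longest bars belong to lists of few genes.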

How the data were processed

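RNA of T1 and T2 cells (3 replicates each, poly(A) libraries) had been sequenced. The authors trimmed reads with Trimmomatic, aligned to mm10 with TopHat2, and used HTSeq for counting and DESeq2 for scaling. The deposited signal is a count divided by a size factor, and versions, annotation and strand setting are not given in the sources used here. Whole reads were recovered for 100% of values (tolerance 0.01 reads, in proportion above 1000 reads). No column was left out, and 27 names read as dates.

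Log2(normalized count + 1) values of genes averaging at least 10 were compared with limma 3.58.1 in R 4.3.3, with a variance trend and Benjamini-Hochberg adjustment. This was the main test because the values are not counts, and edgeR 4.0.16 and DESeq2 1.42.0 were run on the recovered reads. The script was tested on simulated data. Paralog ratios were compared by two-sided exact permutation tests, with 95% intervals from the pooled SD. The members and lists were chosen with earlier results of these data known. Members past the test or in a paralog pair are given with all values, and of each related list at most 4 genes past the test and an absolute log2 fold change of 1, largest first, with Mki67, Pcna, Dazl and Ddx4. Some items that this rule or the lists name are not reported here. Exon lengths and 50-base matches came from GENCODE M21. Alternatives were pseudocounts of 0.5 and 5, no filter or a mean of 50, quantile normalization, no variance trend, the count tools, the replicate block and each replicate left out. Figures were drawn with matplotlib 3.10.9.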

Additional observations from a re-analysis of the deposited data

How the results depend on the processing

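Of the members' calls, 4 higher and 19 lower in T1 cells, the numbers were the same with either pseudocount and with edgeR, 4 and 17 with no filter, 4 and 18 with a mean of at least 50 (where Tet1 was not compared) or quantile normalization, 3 and 14 with no variance trend, 5 and 20 with DESeq2, and 0 and 0 with the fold filter of 2. Tet1 lost its call with no filter (adjusted p = 0.0134) and with quantile normalization (0.0119), and with no variance trend so did Cbx2, Cbx7, Kdm2a, Kdm5b, Kdm6b and Ehmt2 (0.0104 to 0.0331). With the replicate block the numbers were 4 and 18 members, and 2926 and 2854 of all genes, and Ehmt2 was the call lost. Same-numbered samples deviated together only weakly (r = 0.0575, 0.172 and 0.104). Each T1 replicate correlated best with the T2 replicate of its number, while T2 replicate 1 correlated best with T1 replicate 3 (0.0719). Whether same-numbered samples share a batch was not tested. Leaving out 1 replicate gave 3 to 5 higher and 14 to 19 lower members, and 15 to 25 higher genes of the related lists, with 15 without T1 replicate 2.

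Values near 0 changed sign. Quantile normalization gave log2 fold changes of 0.021 for Ezh2, -0.028 for Suz12 and -0.0065 for Hdac1, and edgeR gave -0.0015 for Hdac1. With 1 replicate left out the ranges were -0.075 to 0.039 for Ezh2, -0.015 to 0.064 for Suz12, -0.13 to 0.10 for Ring1, -0.082 to 0.46 for Kdm4a, -0.038 to 0.051 for Hdac1 and -0.0028 to 0.22 for Arid1a. The differences of log2 ratios ranged from -0.093 to 0.29 for Tet1 to Tet2, from -0.0056 to 0.12 for Arid1b to Arid1a and from -0.34 to 0.075 for Hmga2 to Hmga1. The cause was not tested.

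List medians with 1 replicate left out were -0.42 to -0.29 for all members, -0.074 to 0.069 for the DNA methyltransferases, -1.32 to -0.95 for the TET genes, -0.65 to -0.58 for PRC1, -0.29 to -0.20 for the lysine 9 methyltransferases, -0.67 to -0.47 for methyl-CpG readers and 0.19 to 0.33 for methylation turnover. They were -0.42 to -0.30 for PRC2 accessory genes, -0.22 to -0.074 for other PRC1 subunits, -0.16 to -0.093 for other histone methyltransferases, -0.033 to 0.12 for other deacetylases, 0.10 to 0.20 for other SWI/SNF subunits, -0.20 to -0.060 for NuRD, CoREST and Sin3 subunits, 0.038 to 0.15 for heterochromatin proteins, -0.70 to -0.31 for Hmga2 and let-7 regulators and -0.26 to -0.13 for proliferation. At a mean of at least 50 the TET median was -0.88, since Tet1 was left out, and that of the Hmga2 and let-7 regulators was 0.59, against -0.52 with quantile normalization. Tet1, with 9 to 37 reads a library, was the member most limited by depth among those compared.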
